A study of Mus musculus with 6 samples.

Results

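Keratins are the intermediate filament proteins of epithelia, and the genes described here are the basal and suprabasal keratins of stratified epithelium. The basal keratins are Krt5, Krt14 and Krt15, and the suprabasal keratins are Krt4, Krt13, Krt1 and Krt10. Members were taken by name, as every non-control probe whose gene name in the array files is one of these 7 symbols. This gave 10 probes for 7 genes, 4 for basal and 6 for suprabasal keratins, among 55681 probes and 34298 gene names on the array.

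The study grew 3D organoids from the epithelium of the mouse esophagus and of the mouse stomach and compared the stratified squamous with the columnar type on single-color Agilent arrays. There were 3 arrays of esophagus organoids and 3 of stomach organoids, 1 of each tissue from mice 1, 2 and 4, all at passage 0 and all untreated controls. Organoids were harvested on day 8, except those of the stomach of mouse 4, which were harvested on day 7. The labels give no strain. The methods list wild-type C57BL/6 female mice beside reporter strains and do not say which were used for the arrays. Stomach organoids were started from glands of the corpus and grew in WNT3A and R-spondin1 conditioned media with gastrin, whereas the esophagus medium had neither conditioned medium nor gastrin and contained forskolin. EGF, noggin, FGF-10 and inhibitors of the TGF-β receptor kinase and of ROCK were in both media. These are the general culture methods. The paper also grew mouse esophagus organoids with WNT3A and R-spondin1, and its array methods do not name the medium. If the general methods were followed, tissue, medium and isolation change together. Their parts in any difference below cannot be told apart. In these bulk samples, fewer cells of a type and less RNA per cell cannot be told apart either.

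Keratin filaments are built from pairs of 1 type I and 1 type II chain. In stratified epithelia the dividing basal cells, which sit on the basement membrane, make mainly Krt5 (type II) with Krt14 (type I), and Krt15 is a further type I keratin of basal cells. When cells leave the basal layer they switch to other pairs, which are Krt4 (type II) with Krt13 (type I) in the internal stratified epithelia such as the esophagus, and Krt1 (type II) with Krt10 (type I) in the epidermis. Columnar epithelium of the stomach instead uses the simple epithelial keratins, among them Krt8 with Krt18.

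Every level below is a normalized log2 intensity, and every difference is a log2 fold change, esophagus minus stomach. A probe was called when its p-value from limma, adjusted over all 55681 probes by Benjamini-Hochberg, was under 0.05. A spot counts as well above background by the flag of the scanner software. Where no array of the lower tissue was well above background, the fold change is stated as at least a value. It is called a bound only because background may hide a still lower level in that tissue. Each such value is an estimate, and the 95% interval of its log2 fold change also reaches smaller changes. Levels of different probes are not compared, because a probe's brightness depends on its own sequence.

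The probes are 60 bases long, and 7 of the 10 are printed here as the array design gives them, in the sense of the transcript, so that it is clear which stretch of each mRNA was measured. Krt5 A_51_P186856, Krt1 A_51_P416669 and Krt10 A_66_P127224, placed nearest to the 3′ ends, are not printed. All lie on the minus strand, and their coordinates are those of the array files (build mm9). In the probe Krt5 A_66_P116076 the capitals mark bases 22 to 54, where 29 of 33 aligned bases are the same as in a probe of Krt6b, a gene of the same cluster. The other members' probes resembled no probe of another gene in the same search. It covered only the probe sequences of the array and not whole transcripts, so it cannot show that a probe is specific for its gene.
Krt5 A_66_P116076: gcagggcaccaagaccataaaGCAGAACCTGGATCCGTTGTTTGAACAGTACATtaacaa
Krt14 A_51_P506417: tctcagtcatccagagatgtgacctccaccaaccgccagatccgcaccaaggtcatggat
Krt15 A_55_P2006261: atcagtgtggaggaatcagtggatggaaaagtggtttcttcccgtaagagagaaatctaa
Krt4 A_51_P319180: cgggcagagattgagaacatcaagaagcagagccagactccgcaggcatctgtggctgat
Krt13 A_55_P2006296: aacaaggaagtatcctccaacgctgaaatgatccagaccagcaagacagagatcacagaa
Krt13 A_51_P307964: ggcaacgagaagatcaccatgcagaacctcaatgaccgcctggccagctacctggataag
Krt10 A_55_P2070009: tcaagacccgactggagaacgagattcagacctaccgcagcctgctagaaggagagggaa

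The Krt5 probe A_66_P116076 lies at chr15:101542056-101542115, and the second Krt5 probe, A_51_P186856, at chr15:101537514-101537573, further towards the 3′ end of the gene. The Krt14 probe is placed at chr11:100064683-100065288, a span of 606 bases for 60 probe bases, and the Krt4 probe at chr15:101750158-101750736, a span of 579 bases, so both cross an intron. The Krt15 probe lies at chr11:99993331-99993390. The Krt13 probes lie at chr11:99980412-99980471 (A_55_P2006296) and chr11:99982471-99982530 (A_51_P307964). Krt1 A_51_P416669 lies at chr15:101676107-101676166. Of the Krt10 probes, A_55_P2070009 lies at chr11:99247846-99247905, and A_66_P127224 is given only 21 bases of genome, chr11:99246538-99246558, so the rest of that probe has no position in the files.

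All 3 basal keratins were higher in esophagus organoids, by 7.13 to 11.82 on the log2 scale over their 4 probes. Of the suprabasal keratins, the esophageal pair Krt4 and Krt13 and the epidermal type I keratin Krt10 were higher in esophagus organoids as well. Krt1, the epidermal partner of Krt10, had no esophagus array well above background and had a slightly higher value in stomach organoids. Thus 9 of the 10 member probes were called higher in the esophagus, where 5.91% of all probes were, and 1 was called higher in the stomach, where 6.32% were. That 1 call is of Krt1, and it was lost in 9 of 17 other settings. For none of the 10 probes did the esophagus and stomach values overlap. In all, 15.7% of 55641 probes with values on all arrays were higher on every esophagus array than on any stomach array, and 13.6% were the other way round. By gene, 6 of 7 members had a probe higher in the esophagus (7.83% of all 34298 gene names) and 1 of 7 in the stomach (8.45%).

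**Figure D1:**
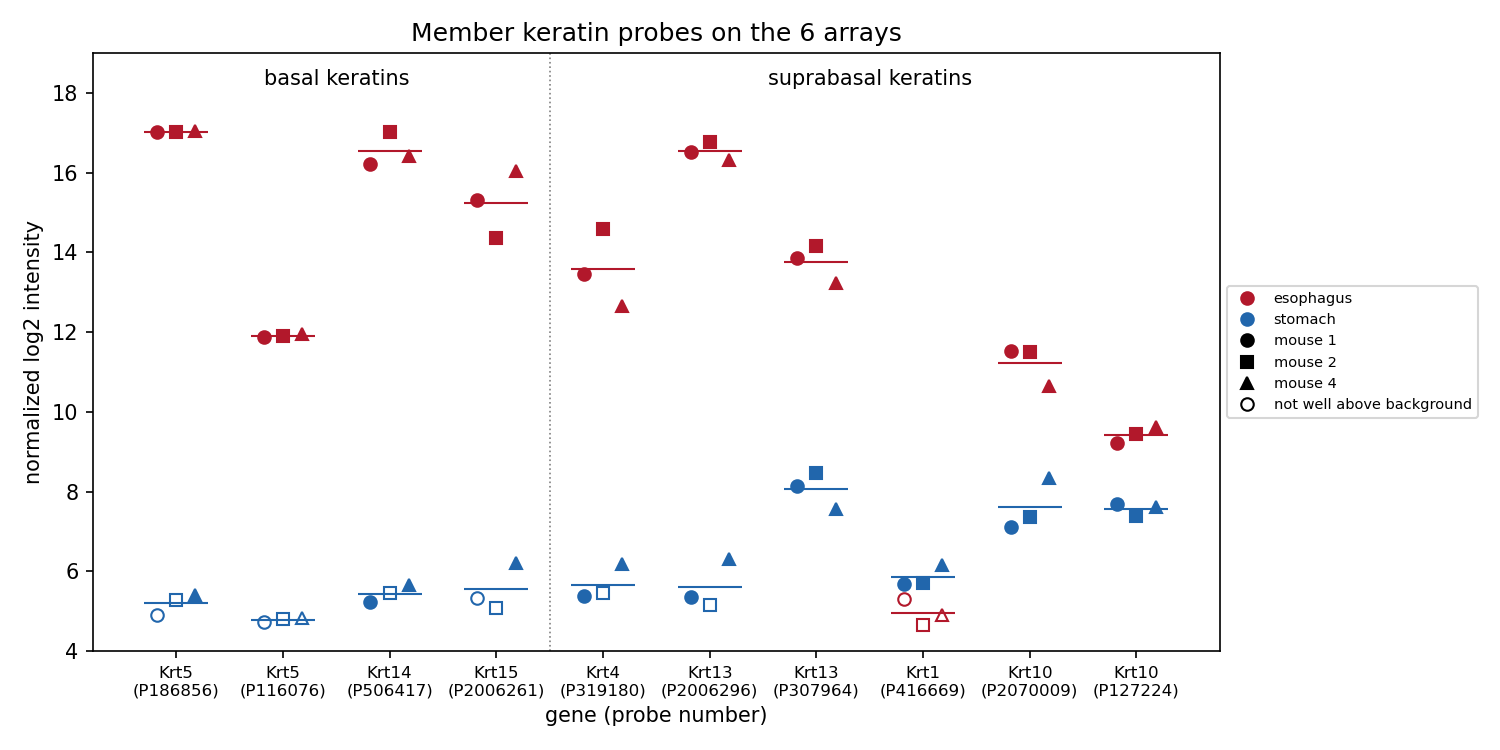
Normalized log2 intensity (y axis) of the 10 member probes (x axis) on the 3 esophagus arrays (red) and the 3 stomach arrays (blue), with the marker giving the mouse, a line the tissue mean, and an open marker a spot not well above background. The basal keratins, Krt4 and Krt13 are far apart between the tissues, Krt10 less so, and Krt1 lies near background with the tissues in the opposite order.

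Krt5, the type II chain of the basal pair, was represented by 2 probes. Probe A_51_P186856 gave 17.02, 17.02 and 17.05 in the esophagus organoids of mice 1, 2 and 4, and 4.92, 5.29 and 5.41 in their stomach organoids. The esophagus values were nearly the same in the 3 mice, and the stomach values lay near background, with only that of mouse 4 well above it. Its log2 fold change was 11.82 ± 0.16 (SE, n = 3 arrays per tissue), with a 95% interval of 11.44 to 12.20 and an adjusted p of 5.40e-08 by limma. The interval covers the spread between arrays under this background correction only, since the value was 10.88 with a normexp offset of 50 and 14.03 to 14.05 with background-subtracted intensities. In the scanner's unscaled intensities this corresponds to 151153, 134853 and 161372 in the esophagus against 28.3, 29.6 and 49.3 in the stomach.

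The second Krt5 probe, A_66_P116076, gave 11.88, 11.91 and 11.94 in the esophagus and 4.72, 4.80 and 4.83 in the stomach. No stomach array was well above background at this probe, so background may hide a still lower stomach level. By this probe the estimate for Krt5 was 140-fold higher in the esophagus (log2 fold change 7.13 ± 0.12, SE; 95% interval 6.84 to 7.42; adjusted p = 1.28e-07 by limma). This estimate holds for this background correction only, since the log2 fold change was 5.98 with offset 50 and 10.23 to 10.47 with background-subtracted intensities. The spread of Krt5 between the esophagus arrays depended on the processing. Its range over the 3 mice was 0.034 with quantile normalization and 0.382 with background-subtracted intensities and 75th-percentile scaling, for probe A_51_P186856.

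Krt14, the type I partner of Krt5, had values of 16.21, 17.02 and 16.42 in the esophagus organoids of mice 1, 2 and 4. In stomach organoids the values were 5.22, 5.46 and 5.66, and those of mice 1 and 4 were well above background. The tissues were separated by more than 10 log2 units in every mouse. The log2 fold change was 11.11 ± 0.23 (SE, n = 3 per tissue; 95% interval 10.56 to 11.65; adjusted p = 2.43e-07 by limma). Outside that interval, it was 10.27 with offset 50 and 12.23 to 12.26 with background-subtracted intensities.

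Krt15, the other type I basal keratin, gave 15.32, 14.37 and 16.04 in the esophagus and 5.34, 5.09 and 6.21 in the stomach. It varied more between the mice than Krt5 and Krt14 did, with an SD of 0.84 in the esophagus against 0.020 and 0.42, and the stomach value of mouse 4 alone was well above background. The log2 fold change was 9.70 ± 0.45 (SE, n = 3 per tissue; 95% interval 8.64 to 10.75; adjusted p = 9.60e-06 by limma), against 8.89 with offset 50 and 11.28 to 11.31, outside that interval, with background-subtracted intensities.

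Krt4, the type II chain of the esophageal suprabasal pair, gave 13.47, 14.60 and 12.65 in the esophagus organoids of mice 1, 2 and 4. Its stomach values were 5.37, 5.45 and 6.18, well above background in mice 1 and 4. Mouse 2 was high and mouse 4 low in the esophagus, with an SD of 0.98, and the tissues remained far apart. The log2 fold change was 7.90 ± 0.47 (SE, n = 3 per tissue; 95% interval 6.80 to 9.01; adjusted p = 3.66e-05 by limma), or 7.16 with offset 50 and, above that interval, 9.13 to 9.16 from background-subtracted intensities.

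Krt13, the type I partner of Krt4, gave 16.52, 16.77 and 16.32 in the esophagus and 5.37, 5.16 and 6.31 in the stomach at probe A_55_P2006296, with the stomach arrays of mice 1 and 4 well above background. The log2 fold change at this probe was 10.93 ± 0.30 (SE; 95% interval 10.22 to 11.63; adjusted p = 7.52e-07 by limma), against 10.14 with offset 50 and 12.32 with background-subtracted intensities. Probe A_51_P307964 gave 13.86, 14.16 and 13.23 in the esophagus and 8.14, 8.47 and 7.56 in the stomach, all 6 well above background. Both probes had the esophagus above the stomach in every mouse, and they differed in size, since the second probe's log2 fold change was 5.69 ± 0.30 (SE; 95% interval 4.98 to 6.40; adjusted p = 2.04e-05 by limma). The probes also differed in their stomach values, and whether the second probe's stomach signal came from Krt13 RNA alone was not tested.

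Krt10, the type I keratin of the epidermal suprabasal pair, gave 11.52, 11.49 and 10.65 in the esophagus and 7.12, 7.37 and 8.33 in the stomach at probe A_55_P2070009. All 6 values were well above background, so Krt10 was detected in both tissues, and the gap between them was smallest in mouse 4. The log2 fold change was 3.61 ± 0.36 (SE, n = 3 per tissue; 95% interval 2.76 to 4.46; adjusted p = 0.000584 by limma). Its other probe, A_66_P127224, gave 9.21, 9.45 and 9.61 against 7.68, 7.38 and 7.62, a log2 fold change of 1.86 ± 0.16 (SE; 95% interval 1.48 to 2.24; adjusted p = 0.000273 by limma).

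Krt1, the type II partner of Krt10 in the epidermis, went the other way. Probe A_51_P416669 gave 5.30, 4.66 and 4.90 in the esophagus, none well above background, and 5.69, 5.71 and 6.16 in the stomach, all well above background. The groups did not overlap, and the gap between the highest esophagus and the lowest stomach value was smaller than the range within the esophagus. With this background correction and all 6 arrays, the estimate for Krt1 was 1.86-fold higher in stomach organoids (log2 fold change -0.90 ± 0.22, SE; 95% interval -1.40 to -0.39; adjusted p = 0.0356 by limma). With background-subtracted intensities the log2 fold change was -2.87 or -2.74, by scaling. The unscaled intensities were 47.7, 33.3 and 30.6 in the esophagus and 56.2, 40.5 and 89.6 in the stomach, which do overlap. The call was lost with a normexp offset of 50 (log2 fold change -0.50, adjusted p = 0.0635), with the mouse as a block (adjusted p = 0.0576) and in 5 of the 6 fits that left out 1 array, in which the log2 fold change was -0.98 without the stomach array of mouse 1, -0.97 without that of mouse 2, -0.74 without that of mouse 4, -0.75 without the esophagus array of mouse 2 and -0.87 without that of mouse 4.

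**Figure D2:**
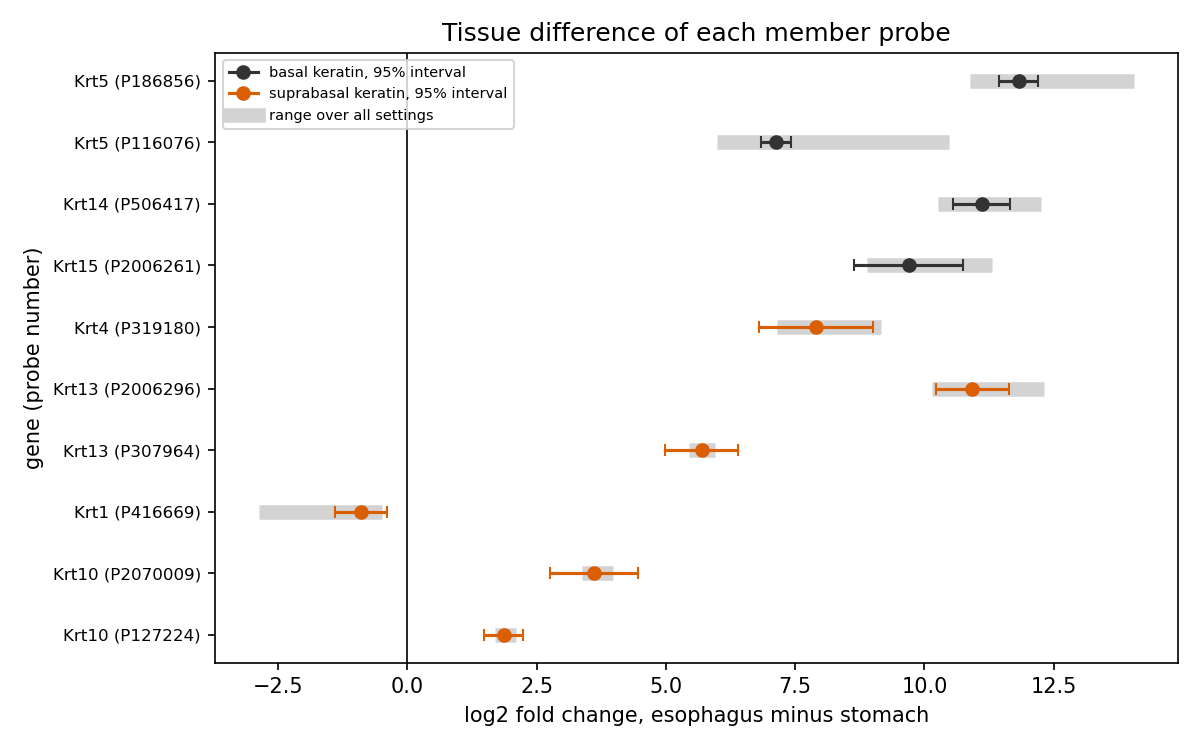
Log2 fold change, esophagus minus stomach (x axis), of each member probe (y axis) with its 95% interval from limma, for basal (black) and suprabasal (orange) keratins, and in grey the range over all settings in which single probes were fitted. Only the interval of Krt1 lies below 0, and the other 9 probes lie above 0 over their whole grey range.

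As groups, the basal keratins had a median log2 fold change of 11.11 over their brightest probes and the suprabasal keratins one of 5.76, against 0.029 over all gene names. The difference between these medians was not tested. Since most stomach values of the basal keratins, Krt4 and Krt13 lie near background, these medians depend on the brightness of the probes and give no order of the genes.

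Other genes were set beside the members from lists of the remaining keratins, of proteins that bind keratin filaments, and of markers of basal, suprabasal and columnar cells. Of 24 other type I keratins, 6 were higher in the esophagus, 5 were higher in the stomach and 13 were not called. Krt17 and Krt16 are type I keratins of hair follicle, wound edge and activated epithelium. Krt17, with no stomach array well above background, was higher by at least 2411-fold with the processing used here. Its log2 fold change was 11.31, and it was 10.05 to 14.48 over the other settings. Krt16 and the hair keratin Krt32 had log2 fold changes of 9.31 and 5.08. The simple epithelial keratins Krt18 (-5.51), Krt19 (-5.45) and Krt20 (-5.01) were the other way round, although Krt18 and Krt19 were well above background on all esophagus arrays too. The median over the list was 0.10.

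Of 21 other type II keratins on the array, 3 were higher in the esophagus, 5 were higher in the stomach and 13 were not called, with a median of 0.12. Krt6a and Krt6b, the usual partners of Krt16 and Krt17, and the oral keratin Krt76 were higher in the esophagus. None had a stomach array well above background. The bounds were estimated at 2707-fold for Krt6a, 2430-fold for Krt6b and 2.24-fold for Krt76. Only 2 esophagus arrays measured Krt76 above background, and the 95% interval of its log2 fold change was 0.63 to 1.89. The bounds hold only for the processing used here, with log2 fold changes of 11.40 for Krt6a and 11.25 for Krt6b. Over the other settings these were 10.26 to 14.69 and 10.19 to 14.15. The Krt76 call, of a log2 fold change of 1.26, was lost in 6 of 17 other settings, among them offset 50 (0.66, adjusted p = 0.0729 by limma) and the fits without the stomach array of mouse 1 (1.21) or 2 (1.21) or the esophagus array of mouse 4 (1.26), and a filter on dim probes left it untested. Krt8 (-11.25, well above background on 1 esophagus array), the type II chain of simple epithelia, Krt7 (-7.90) and Krt79 (-2.48) were higher in the stomach. Adjusted p-values of these type I and type II keratins by limma were between 8.38e-08 and 0.0226.

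The type I genes lie in a cluster on chromosome 11 and the type II genes in one on chromosome 15, which also holds Krt18. On chromosome 11, 10 of 27 keratin genes were higher in the esophagus at their brightest probe, 4 were higher in the stomach and 13 were not called. Krt13 and Krt15 are next to each other, followed by Krt19, which was higher in the stomach, Krt9, which was not called (1.03, adjusted p = 0.0801 by limma), and then Krt14, Krt16 and Krt17, all higher in the esophagus, and Krt42 (-3.13), higher in the stomach. Krt10 lies apart from these. It stands between the hair follicle keratin gene Krt28, which was not called, and the corneal keratin gene Krt12, higher in the esophagus (at least 4.74-fold). The Krt12 bound holds only for the processing used here, since its log2 fold change of 2.25 was 1.49 to 4.77 over the other settings. On chromosome 15, 5 of 24 genes were higher in the esophagus, 6 were higher in the stomach and 13 were not called, leaving out the hair keratin gene Krt85, whose brightest probe has no position in the files and was higher in the stomach (-1.89, adjusted p = 0.000575 by limma). Krt5 is the last of 3 consecutive genes, Krt6b, Krt6a and Krt5, all higher in the esophagus. Krt4 lies between Krt76 and Krt79, which were called in opposite directions, and Krt1 lies between Krt2 and Krt77, neither of which was called.

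**Figure D3:**
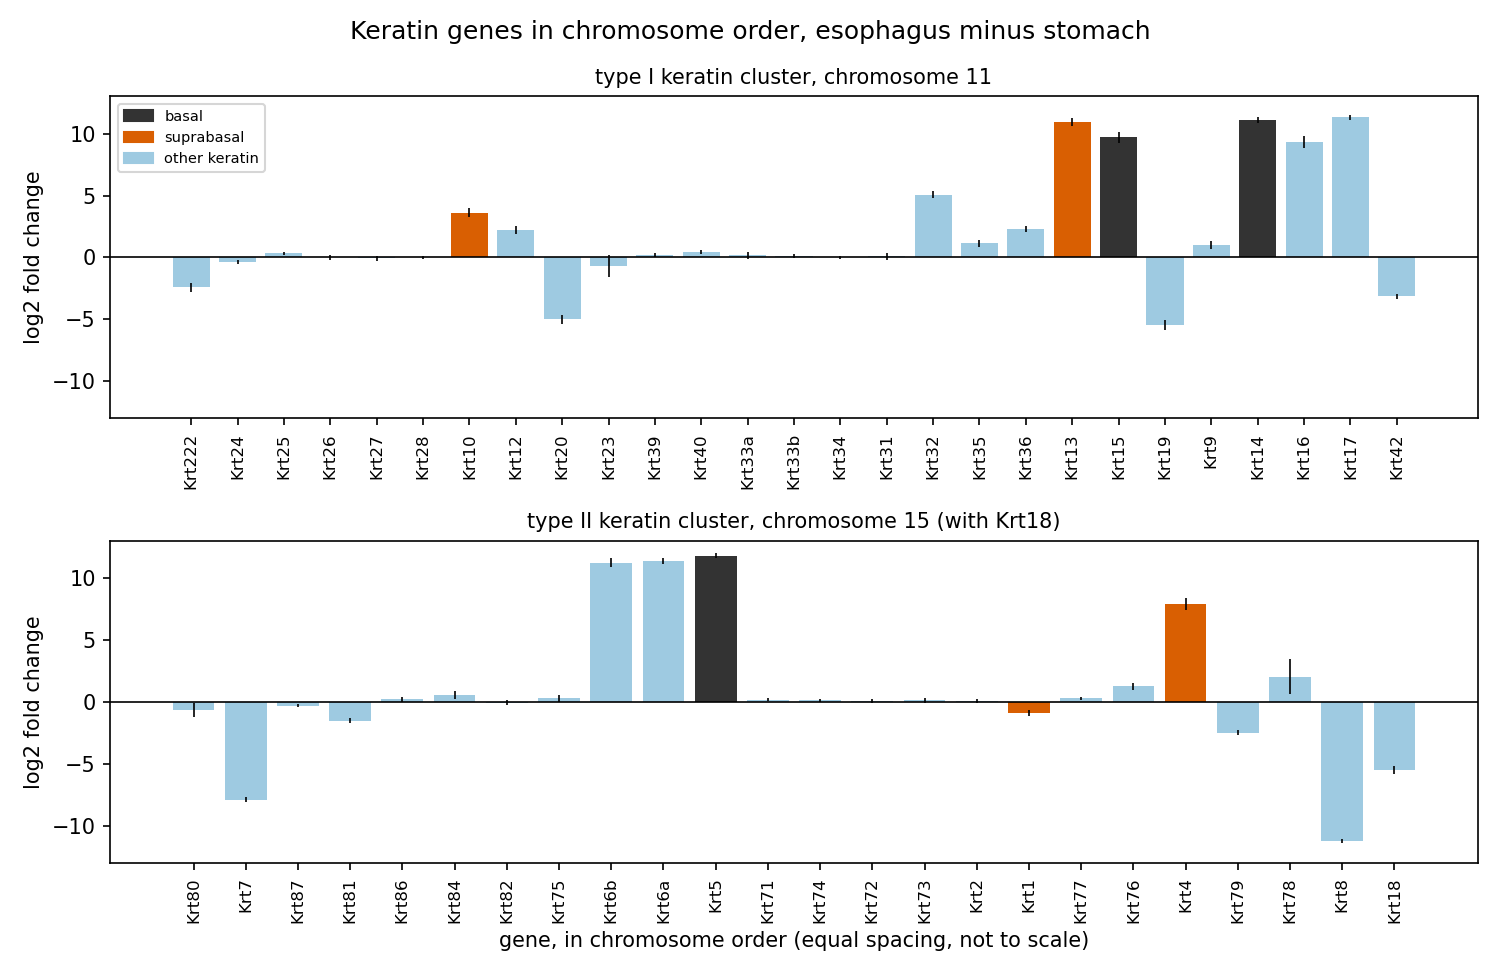
Log2 fold change, esophagus minus stomach (y axis, bars with SE), of the brightest probe of each keratin gene in its order along chromosome 11 (top) and chromosome 15 (bottom), equally spaced, with basal members in black, suprabasal members in orange and other keratins in blue. Genes higher in the esophagus stand next to genes higher in the stomach or not called, as around Krt15 and Krt19 and around Krt4 and Krt79.

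Sequence before the transcription start is shown for the members higher in the esophagus that have an entry, Krt5, Krt14, Krt13 and Krt10. The stretches of 120 bases before the start are from RefSeq (GRCm38.p6), all on the minus strand, at chr15:101712906-101713025 for Krt5, chr11:100206031-100206150 for Krt14, chr11:100121567-100121686 for Krt13, at the upstream one of its 2 entries, and chr11:99389365-99389484 for Krt10. Capitals mark the A and T rich motif nearest to the start, where TATA boxes are usually found. Whether the Krt14 entry begins at the gene's main start is not settled by the table.
Krt5: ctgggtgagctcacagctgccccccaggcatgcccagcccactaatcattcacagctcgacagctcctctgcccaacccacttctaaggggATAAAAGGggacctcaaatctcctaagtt
Krt14: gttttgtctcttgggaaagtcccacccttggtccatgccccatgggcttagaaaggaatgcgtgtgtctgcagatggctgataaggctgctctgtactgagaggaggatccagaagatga
Krt13: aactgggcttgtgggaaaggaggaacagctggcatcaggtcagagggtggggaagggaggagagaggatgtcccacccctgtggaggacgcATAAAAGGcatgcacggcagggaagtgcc
Krt10: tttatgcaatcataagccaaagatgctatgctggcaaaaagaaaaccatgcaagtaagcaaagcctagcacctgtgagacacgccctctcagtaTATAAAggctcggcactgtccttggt

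Krt5 and Krt13 both hold ATAAAAGG on the gene's strand with its first base at position -29, counted from the start. Of 32851 RefSeq entries, 1.54% hold ATAAAAGG on either strand within 250 bases before the start, and 0.32% hold it on the gene's strand between -35 and -16. Krt10 holds TATAAA at -26, which 12.4% of entries hold within 250 bases on either strand and 1.84% on the gene's strand between -35 and -16. These 2 motifs were chosen after the sequences had been read, and a match is a description only. The motif GCCNNNGGC, searched on both strands, was in none of the members' entries and in 13.7% of all. CACCC, searched likewise, was in all 5 of the members' entries and in 52% of all. The entries of Krt14 and the second one of Krt13 held neither ATAAAAGG nor TATAAA. Krt15, Krt4 and Krt1 had no entry.

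Some of the proteins that bind keratin filaments anchor them to desmosomes and hemidesmosomes. Of 14 keratin-binding proteins on the array, 7 had a probe higher in the esophagus and 2 had one higher in the stomach. Dst was in both counts. A further 6 were not called, and the median log2 fold change was 0.90. The desmosomal plakophilin Pkp1 (7.25, adjusted p = 0.000147 by limma) and the cornified envelope protein envoplakin, Evpl (3.19, adjusted p = 0.00430), were higher in the esophagus. Dst, whose epithelial product links keratin to the hemidesmosome, was 4.84 higher at its brightest probe (adjusted p = 3.15e-05 by limma), and another of its 4 probes went the other way (-0.87, adjusted p = 0.0256 by limma). That second call was lost in 7 of 17 other settings, with adjusted p-values up to 0.108, among them the fits without stomach mouse 1 (-0.84) or 2 (-0.72) and without esophagus mouse 1 (-0.82), 2 (-0.92) or 4 (-0.88). Pkp2, a plakophilin also found in simple epithelia, was higher in the stomach (-4.28, adjusted p = 0.000233 by limma).

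Markers other than keratins were read in the same bulk samples as the members. Of 11 basal cell markers, 8 had a probe higher in the esophagus, 3 had one higher in the stomach, with Trp63 in both counts, and 1 was not called. The median log2 fold change over their brightest probes was 1.14, well under that of the genes named next. Col17a1, a hemidesmosome collagen (at least 721-fold, with no stomach array well above background; adjusted p = 8.38e-08 by limma), the nerve growth factor receptor Ngfr (log2 fold change 6.47) and the laminin chain Lama3 (4.65) were higher in the esophagus. The Col17a1 bound holds only for the processing used here, since its log2 fold change of 9.49 was 8.43 to 12.44 over the other settings. Trp63 encodes p63, the transcription factor that sets up basal cells, and its probes did not go one way. At 3 probes it was higher in the esophagus, by at least 54.5-fold, 89.4-fold and 309-fold, with no stomach array well above background. These bounds hold only for the processing used here, with log2 fold changes of 5.99, 6.48 and 8.46. Their lowest values over the other settings were 4.63, 5.37 and 7.10. At its brightest probe, A_55_P2161055, Trp63 was higher in the stomach (-1.22, adjusted p = 0.0290 by limma). That last call was lost in 9 of 17 other settings, 5 of them with 1 array left out, with adjusted p-values up to 0.123. Here and in the like counts for Dst, Krt1 and Krt76, the fit with slide as a block is the same as the fit without the esophagus array of mouse 4, which is alone on its slide, so these 2 settings are 1 fit. Left out singly, the arrays that ended it were those of stomach mice 1 (-1.11) and 2 (-0.995) and esophagus mice 1 (-1.17), 2 (-1.24) and 4 (-1.25).

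Of 16 suprabasal cell markers, 12 were higher in the esophagus, none was higher in the stomach and 4 were not called, with a median of 6.39. Among the 12 were Krtdap, a keratinocyte differentiation-associated protein (at least 3994-fold), the calmodulin-like protein Calml3 (at least 814-fold) and the cornified envelope precursor Sprr3 (at least 675-fold), none of them well above background on a stomach array. These bounds hold only for the processing used here, with log2 fold changes of 11.96, 9.72 and 9.49. Their lowest values over the other settings were 10.84, 8.46 and 8.22. The count of 12 fell to 8 without the stomach array of mouse 1 and to 8 without that of mouse 2. Ivl, the cornified envelope protein involucrin, was not called at either of its 2 probes (log2 fold changes 0.02 and 0.04). Of 13 transcription factors of stratified epithelium, 8 had a probe higher in the esophagus and 5 were not called, with a median of 1.94. Among the 8 were Tfap2a (log2 fold change 7.63), Tfap2c (at least 27.4-fold, with no stomach array well above background) and Grhl3 (4.23). Of the 8, 1 (Trp63) also had a probe higher in the stomach. The Tfap2c bound holds only for the processing used here, since its log2 fold change of 4.78 was 3.707 to 7.855 over the other settings.

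The labelled cell types were checked against markers of other cells. All 11 gastric columnar markers were higher in the stomach, among them Tff2 (at least 7021-fold), Tff1 (log2 fold change -12.33, well above background on 1 esophagus array) and Gkn2 (at least 4560-fold), secreted products of the surface and neck mucous cells, and each esophagus array had only 1 to 2 of the 11 well above background. The Tff2 and Gkn2 bounds hold only for the processing used here, with log2 fold changes of -12.78 and -12.15. Their smallest changes over the other settings were -11.63 and -11. The unscaled intensities of the 11 markers summed to 391 to 526 in esophagus organoids and to 500454 to 881238 in stomach organoids. None of 6 fibroblast markers was called, and 0 to 2 of them were well above background on any array, with sums of 175 to 262. None of 5 immune cell markers was called, 3 were well above background on every array, and their sums were 1544 to 7695 in the stomach and 4872 to 31239 in the esophagus. In the immune list the pan-leukocyte gene Ptprc had no array well above background. Cd68, a macrophage and lysosome gene, gave 14.69, 12.88 and 11.78 in the esophagus and 11.01, 11.20 and 12.29 in the stomach at its brightest probe (log2 fold change 1.62, adjusted p = 0.211 by limma), and its part in the members' values was not tested.

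Within the esophagus the members did not share 1 order of the mice. Krt4, Krt13 at both probes and Krt10 at A_55_P2070009 were all lowest in mouse 4, and Krt4 and Krt13 were highest in mouse 2. Krt15 had the opposite order, with its highest value in mouse 4 and its lowest in mouse 2, and Krt10 at A_66_P127224 was also highest in mouse 4. Among 22802 probes well above background on all esophagus arrays, the range of Krt4 over the mice (1.94) lay at percentile 96.4 and that of Krt15 (1.67) at percentile 94.5. The range of Krt5 at A_51_P186856 (0.034) lay at percentile 0.342 with quantile normalization. It was 0.382 with background-subtracted intensities and 75th-percentile scaling.

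The other suprabasal markers were low in the same array. Of 14 such markers well above background on all esophagus arrays, 11 were lowest in mouse 4, with a median deviation from the tissue mean of -1.28, and 9 were highest in mouse 1, with a median deviation of 0.93. The summed unscaled intensity of the 16 suprabasal markers was 198003 in mouse 4 against 795586 and 701268 in mice 1 and 2. Of the 11 basal markers, 6 were lowest in mouse 4, with a median deviation of -0.094. The esophagus array of mouse 4 is also the only one on the second slide, so mouse, slide and scan cannot be told apart for it, and there is no replicate of it by which to test these deviations. Without it the members higher in the esophagus all stayed called.

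**Figure D4:**
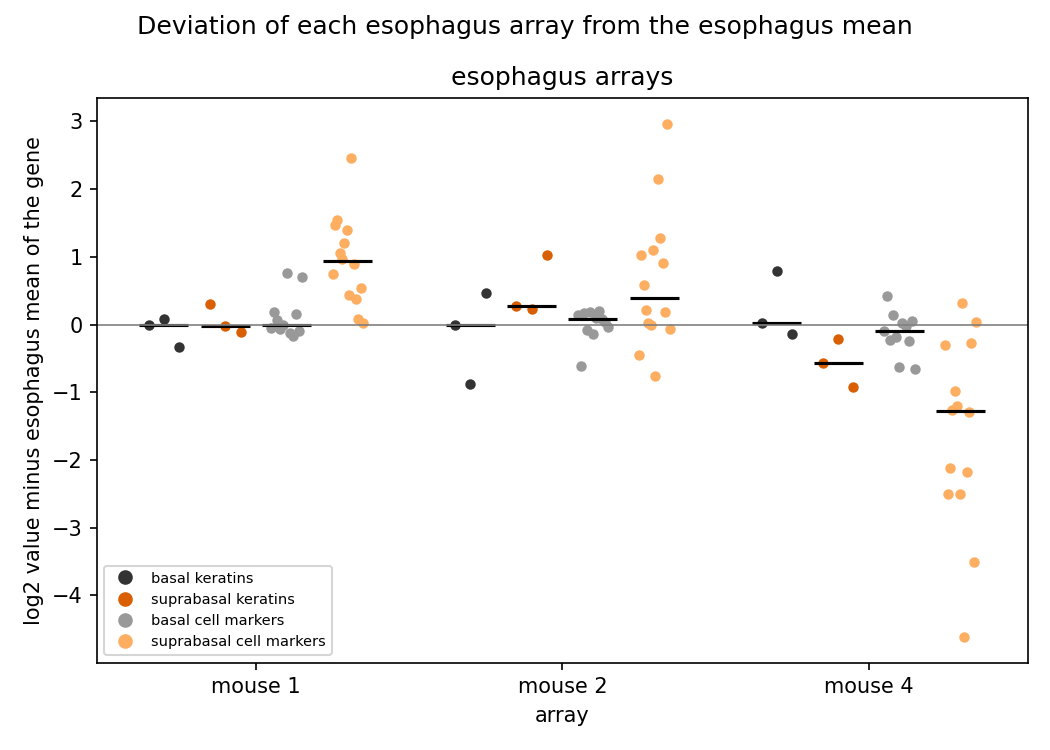
Log2 value on each esophagus array minus the esophagus mean of the gene (y axis) by mouse (x axis), for genes well above background on all esophagus arrays (brightest probe), with a point per gene and a bar at the median of each list. Suprabasal keratins and most suprabasal markers lie below 0 in the array of mouse 4 (marker and keratin medians -1.28 and -0.57).

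In the stomach organoids, 8 of the 10 member probes were highest in mouse 4, the exceptions being Krt13 at A_51_P307964, highest in mouse 2, and Krt10 at A_66_P127224, highest in mouse 1. Among the 8, Krt5 at A_66_P116076 was well above background on no stomach array, so its order there has no meaning. All 3 basal keratins were well above background in stomach organoids of mouse 4, against 1 of 3 in mouse 1 (Krt14) and 0 of 3 in mouse 2. The summed intensity of all 16 suprabasal markers was 98947 in mouse 4 against 14307 and 8329 in mice 1 and 2. Sprr1a (16.11 against 13.58 and 13.80), which was not called between the tissues, and Cnfn (12.43 against at most 9.02) were far above their other stomach values. Over 11 suprabasal markers higher in the esophagus, the median deviation from the stomach mean was 0.011, -0.087 and 0.096 in mice 1, 2 and 4. Of these 11, 5, 3 and 5 were well above background in mice 1, 2 and 4, and 8 were highest in mouse 4. All 11 columnar markers were well above background there, with a sum of 814627 against 881238 and 500454 in mice 1 and 2, and by brightest probe 4 of the 11 had their highest and 6 their lowest stomach value on this array. This array is the one harvested on day 7, and its part in the stomach values was not tested, since no other stomach array shares the day. Without it the 9 probes called higher in the esophagus stayed called.

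The genes outside the keratin family with the pattern nearest to each member over the 6 arrays were sought by Euclidean distance between log2 values after centring each gene, among 18457 genes well above background in at least 1 tissue. A distance of 0 would be the same pattern. Krtdap was nearest to Krt5 (0.571), followed by the defensin Defb14 (1.36) and S100a9 (1.95), a calcium-binding protein of neutrophils and activated epithelium. Krt14 had the same 3 genes in another order, Defb14 (1.07), Krtdap (1.21) and S100a9 (1.23), and Krt13 had Defb14 (0.916), S100a9 (1.21) and the protease inhibitor Slpi (1.47). S100a9 (1.48) was nearest to Krt15, then 2610528A11Rik (1.52) and Hoxc4 (1.65). Krt4 had Cd34 and Kank1 (both 1.17) and Gm6557 (1.19). Krt10, with its smaller tissue difference, had H2-Ab1 (0.391), Foxc1 (0.550) and Igfbp3 (0.626). With 2 tissues on 6 arrays, a short distance requires a tissue difference of like size.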

How the data were processed

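RNA of 6 organoid cultures was hybridized by the authors to single-color Agilent SurePrint G3 mouse arrays and read with Feature Extraction (version 11.5.1.1, design positions on mm9). The deposited scanner files give each spot's mean intensity, median background around it, intensity after background subtraction and quality flags, without normalization across arrays. The authors' deposited table holds log2 values that they background corrected and quantile normalized.

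Starting from the mean intensity and the median local background, values were corrected by normexp (offset 16), spots marked as outliers were set to missing, and the 59305 non-control spots (of 62976) were quantile normalized on the log2 scale and averaged per probe in limma (version 3.58.1, R 4.3.3). The result differed from the authors' log2 values by a median of 0.0494. Each probe was fitted by lmFit and eBayes with no covariate, p-values being adjusted by Benjamini-Hochberg over all probes, and a gene counted as called when any of its probes was. The fit was tested on simulated data. Probe similarity was searched among the probes of the array with blast (version 2.17.0). Between 45.5% and 51.1% of probes were well above background per array and no spot was saturated. The number of arrays limits the precision.

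The labels give the same mouse numbers to both tissues, which was taken as pairing by animal. Deviations of same-mouse arrays from their tissue means correlated with r of 0.023, 0.012 and -0.010, against -0.078 to 0.044 between mice, and a fit with a replicate block for the mouse was an alternative. Others were background-subtracted intensities, with scaling to the 75th percentile or quantile normalization, offset 50, a filter on dim probes, the authors' log2 values, trend and robust variances, slide as a block, outlier spots kept, probes averaged per gene, other thresholds (1.5-fold with unadjusted p, 2-fold) and leaving out each array.

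Named besides the members were, per list, the 3 genes with the largest called change in each direction by brightest probe, and the 3 genes nearest in pattern to each bright member. Other genes named (Krt9, Krt12, Krt28, Krt42, Krt2, Krt77, Ivl, Ptprc, Cd68, Krt85, Sprr1a, Cnfn) were chosen after their values were seen. Members and lists were chosen with earlier results of these data known. Krt83 was not matched on the array, and 1 gene that the rule would name is not reported here. Where a gene has several probes, all were counted, and the brightest gives its value.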

Additional observations from a re-analysis of the deposited data

How the results depend on the processing

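The 9 member probes higher in the esophagus kept their direction and their call in every setting tried, with log2 fold changes of 10.88 to 14.05 and 5.98 to 10.47 for the Krt5 probes, 10.27 to 12.26 for Krt14, 8.89 to 11.31 for Krt15, 7.16 to 9.16 for Krt4, 10.14 to 12.32 and 5.44 to 5.96 for the Krt13 probes, and 3.37 to 3.98 and 1.69 to 2.10 for the Krt10 probes. Averaging a gene's probes gave 9.48 for Krt5, 8.31 for Krt13 and 2.74 for Krt10. Krt1 kept its direction but not its call. Its log2 fold change was -0.50 with normexp offset 50 (adjusted p = 0.0635), -0.90 with the replicate block (0.0576), -0.87 with slide as a block (0.0834), the same fit as without the esophagus array of mouse 4, which is alone on its slide, -0.90 but under the added 2-fold threshold, and -1.07 to -0.74 when 1 array was left out (largest adjusted p 0.108, limma). With background-subtracted intensities it was larger and called, at -2.87 with 75th-percentile scaling (adjusted p = 0.00224) and -2.74 with quantile normalization (0.0310). The number of member probes, and of member genes, higher in the stomach was therefore 0 with offset 50, with either block and with the 2-fold threshold, and 0 to 1 when 1 array was left out. The replicate block changed no other call of a member. Keratin-binding genes higher in the stomach numbered 1 with slide as a block, with the 2-fold threshold and with probes averaged, and 1 to 2 without 1 array. Suprabasal markers higher in the esophagus numbered 9 with offset 50, with background-subtracted quantile values and with trend and robust variances. Stratified epithelium transcription factors higher in the stomach numbered 0 with background-subtracted intensities under either scaling, with offset 50, with slide as a block and with probes averaged, and 0 to 1 without 1 array. The cause of these changes was not tested. Background-subtracted intensities scaled to the 75th percentile, a change of 2 choices at once, moved the median over all probes to 0.19. Over all probes 6809 were called, 4081 without stomach replicate 1, 4116 without stomach replicate 2, and 9982 with an unadjusted p under 0.05 and 1.5-fold. Stomach values of the basal keratins, Krt4 and Krt13 at A_55_P2006296 lie at or near background, which limits the precision of their fold changes.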
